A study of Mus musculus with 16 samples.

Results

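The genes examined here encode the subunits and assembly factors of the proteasome. They were chosen by symbol: every probe whose gene symbol on the array platform starts with Psma, Psmb, Psmc, Psmd, Psme, Psmf or Psmg followed by a digit. The rule took 67 probes for 45 genes, of 25697 probes and 16590 named genes on the array. For 2 of these genes, Psmc3ip and Psme3ip1, the symbol names an interaction partner of a family member, the Psmc3 or Psme3 product. They are not counted as proteasome parts here and are described separately at the end. The other 43 genes, with 64 probes, are the proteasome genes below.

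RNA came from C2C12, an immortalised mouse myoblast line that fuses into myotubes when serum is reduced. Cytoplasmic extracts of cells in growth medium with fetal bovine serum (GM) or in differentiation medium with horse serum (DM) were incubated with beads carrying anti-MYF5 or control IgG, and the precipitated RNA was measured on 16 single-colour Illumina bead arrays. MYF5 is a myogenic transcription factor, and the study asked which RNAs travel with it. There were 4 groups (GM IgG, GM MYF5, DM IgG, DM MYF5) of 4 replicates, all of this 1 line with no genetic change named in the labels. Nothing in the labels says that the replicates were separate cultures, so each p-value measures the spread between these samples, which may be technical. All 4 groups are precipitates: a change of MYF5 over IgG is a change in the composition of recovered RNA, and a change of DM over GM is read from material that an antibody or control bead retained. In such bulk material, fewer cells of a type and less RNA per cell cannot be told apart.

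The proteasome is the barrel-shaped protease that degrades proteins tagged with ubiquitin. Its core particle stacks outer rings of alpha subunits, which form the gate, on inner rings of beta subunits, some of which carry the cutting sites. A regulatory particle caps the core: its base holds a ring of ATPases that unfold and feed in the substrate, and its lid removes the ubiquitin. Other caps, the activators, open the gate without ATP, and dedicated chaperones build each ring and then leave. In muscle the proteasome removes regulators during differentiation and myofibrillar protein during wasting, and cells tune its subunits together at transcription.

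Because that shared transcriptional control is read from promoters, sequence upstream of the genes was searched for known elements. RefSeq start sites on GRCm38.p6 gave windows of 300 bases (250 before and 50 after the start) for 37 of the 43 genes, 40 windows in all. Both strands were searched for 5 motifs. The core of the antioxidant response element, TGACNNNGC, through which Nfe2l1 and Nfe2l2 raise proteasome genes, was in 6 of 40 windows (15%), against 12.4% of all 32851 windows. The ETS site CCGGAAGT was in 10 windows of 9 genes (25%), against 3.89% of all windows. The site of nuclear respiratory factor 1 was in 7 windows (17.5%, against 4.6%), the GC box GGCGGGGC in 9 (22.5%, against 14.2%) and CCAAT in 13 (32.5%, against 37.4%). A match is a string of letters and not a bound site. The 4 windows below are shown because they belong to genes that the results turn on or carry the antioxidant core nearest their start. Capitals mark the ETS site in Psmc1, the antioxidant core in Psmb6, and both in Psmd12 and Psme4, each on either strand. All lie on the plus strand, at chr12:100109952-100110251 for Psmc1, chr11:107479278-107479577 for Psmd12, chr11:30771525-30771824 for Psme4 and chr11:70525107-70525406 for Psmb6.
Psmc1: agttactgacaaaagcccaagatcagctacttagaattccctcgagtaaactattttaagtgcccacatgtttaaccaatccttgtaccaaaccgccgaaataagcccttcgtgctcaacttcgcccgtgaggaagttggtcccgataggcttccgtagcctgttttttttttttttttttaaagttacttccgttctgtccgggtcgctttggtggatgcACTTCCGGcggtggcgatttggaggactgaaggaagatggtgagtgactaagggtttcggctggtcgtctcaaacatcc
Psmd12: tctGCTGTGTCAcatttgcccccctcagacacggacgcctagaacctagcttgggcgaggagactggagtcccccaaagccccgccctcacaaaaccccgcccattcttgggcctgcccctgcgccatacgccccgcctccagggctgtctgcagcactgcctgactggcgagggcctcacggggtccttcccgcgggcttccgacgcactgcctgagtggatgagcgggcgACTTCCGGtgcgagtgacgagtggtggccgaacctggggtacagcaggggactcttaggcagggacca
Psme4: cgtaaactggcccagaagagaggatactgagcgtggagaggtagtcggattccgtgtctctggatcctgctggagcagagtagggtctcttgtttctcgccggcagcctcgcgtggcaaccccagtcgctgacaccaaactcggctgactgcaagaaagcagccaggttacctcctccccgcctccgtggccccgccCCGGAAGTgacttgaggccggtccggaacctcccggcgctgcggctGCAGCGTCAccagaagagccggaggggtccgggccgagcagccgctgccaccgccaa
Psmb6: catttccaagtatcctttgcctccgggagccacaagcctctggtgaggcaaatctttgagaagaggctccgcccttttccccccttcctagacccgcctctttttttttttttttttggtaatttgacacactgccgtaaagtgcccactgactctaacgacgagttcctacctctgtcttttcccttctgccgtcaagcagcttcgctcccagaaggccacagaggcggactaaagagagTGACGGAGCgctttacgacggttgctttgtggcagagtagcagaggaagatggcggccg

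Of the 64 proteasome probes, 57 were tested, for 40 genes. A probe was tested when 4 or more of the 16 arrays gave it a detection p under 0.05 against the array's own negative control beads. Of the 40 genes, 39 were detected on all 16 arrays and Psmb8 on 14. Psma1, Psma6 and Psmb9 were not above background on any array and were not tested. Psma8, Psmb11, Psmd3, Psme2b, Psmf1 and Psmg4 were not analysed here. Where a gene had several probes, the one with the highest mean signal stands for it. Levels are normalized log2 signals, comparable between arrays for 1 probe and not between probes. Mean signal per array lay between 324 and 581, and 46.4% to 50.9% of probes were detected. Arrays correlated at 0.977 to 0.996 within their own group and at 0.841 to 0.972 with other groups. The number of arrays limits the precision.

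Proteasome transcripts were under-represented in the MYF5 precipitate in both media. In GM, 32 of 40 genes were lower in MYF5 than in IgG, 1 was higher and 7 did not pass the test (limma, Benjamini-Hochberg adjusted p under 0.05). Without scaling between arrays, 17 were lower and 2 higher in GM, against 8.23% and 39.7% of all genes. The same test called, in the scaled data, 22.4% of all 9429 genes lower and 26.3% higher, 48.7% in all. In DM the counts were again 32 lower, 1 higher and 7 not called, against 26.6% lower and 27.7% higher of all genes, 54.3% in all. The median log2 change was -0.81 in GM and -0.83 in DM, where the median of all genes was 0.04 and 0.02. Single genes ran from -1.77 to 0.55 in GM and from -1.57 to 0.44 in DM. In GM, 28 genes had all 4 MYF5 arrays below all 4 IgG arrays and 1 had all above, against 18.9% and 21.7% of all genes; in DM the counts were 31 and 1, against 25.6% and 26.6%. For a gene whose groups do not overlap, the exact two-sided permutation p is 0.0286, the smallest that 4 against 4 arrays can give.

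**Figure D1:**
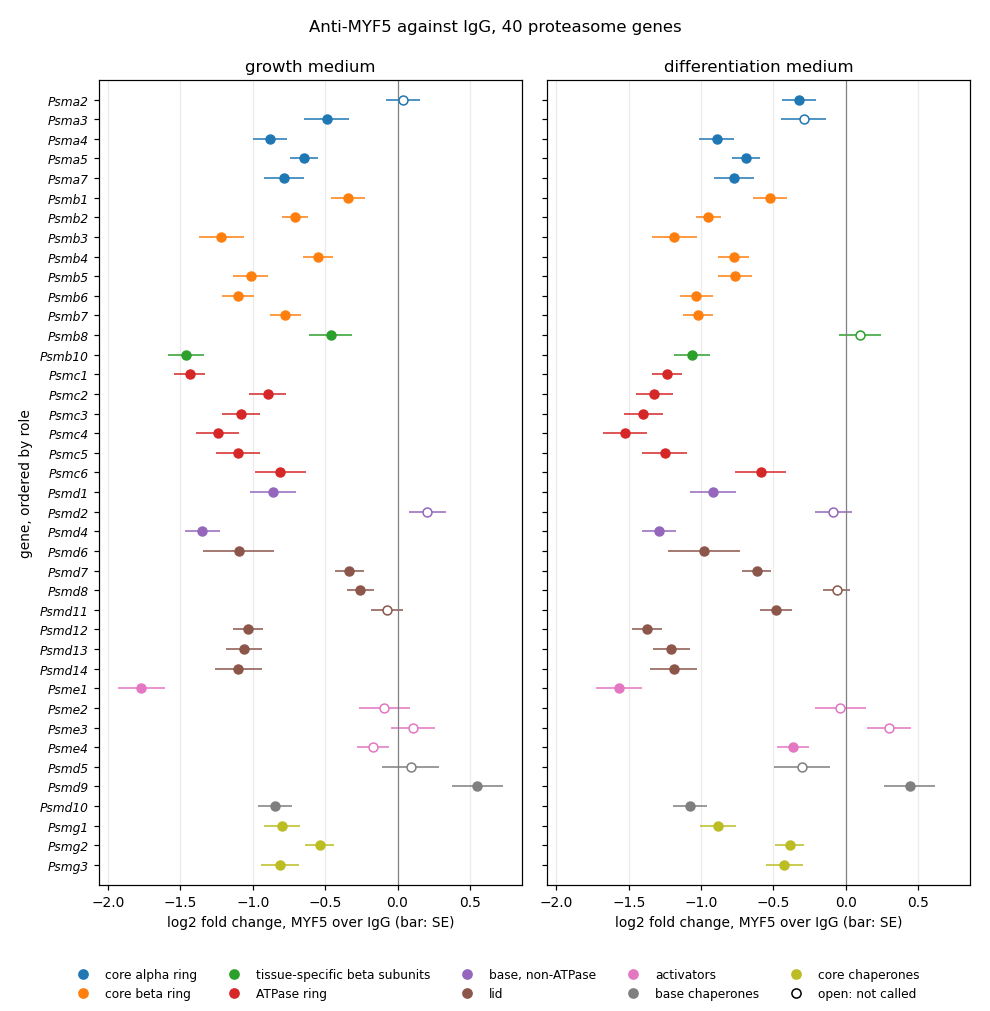
Log2 fold change of MYF5 over IgG (horizontal axis, bars are SE) for the 40 tested proteasome genes, ordered by role, in GM and in DM; filled points were called and open points were not. In each medium 32 genes lie left of zero as called points, and 1, Psmd9, lies right of it as a called point.

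Across the roles, the ATPase ring showed the lowest medians and the activators were divided. The median change in GM and DM was -0.65 and -0.69 for the alpha ring, -0.77 and -0.95 for the standard beta subunits, -1.09 and -1.29 for the ATPase ring, -0.86 and -0.92 for the non-ATPase base and -1.04 and -0.98 for the lid. It was -0.96 and -0.48 for the tissue-specific beta subunits, -0.80 and -0.42 for the core chaperones, -0.13 and -0.20 for the activators, and 0.09 and -0.31 for the base chaperones. The roles were not tested against each other. The same direction was seen array by array: the median deviation of the 40 genes from their 16-array means lay between 0.24 and 0.48 on the 8 IgG arrays and between -0.47 and -0.20 on the 8 MYF5 arrays.

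**Figure D2:**
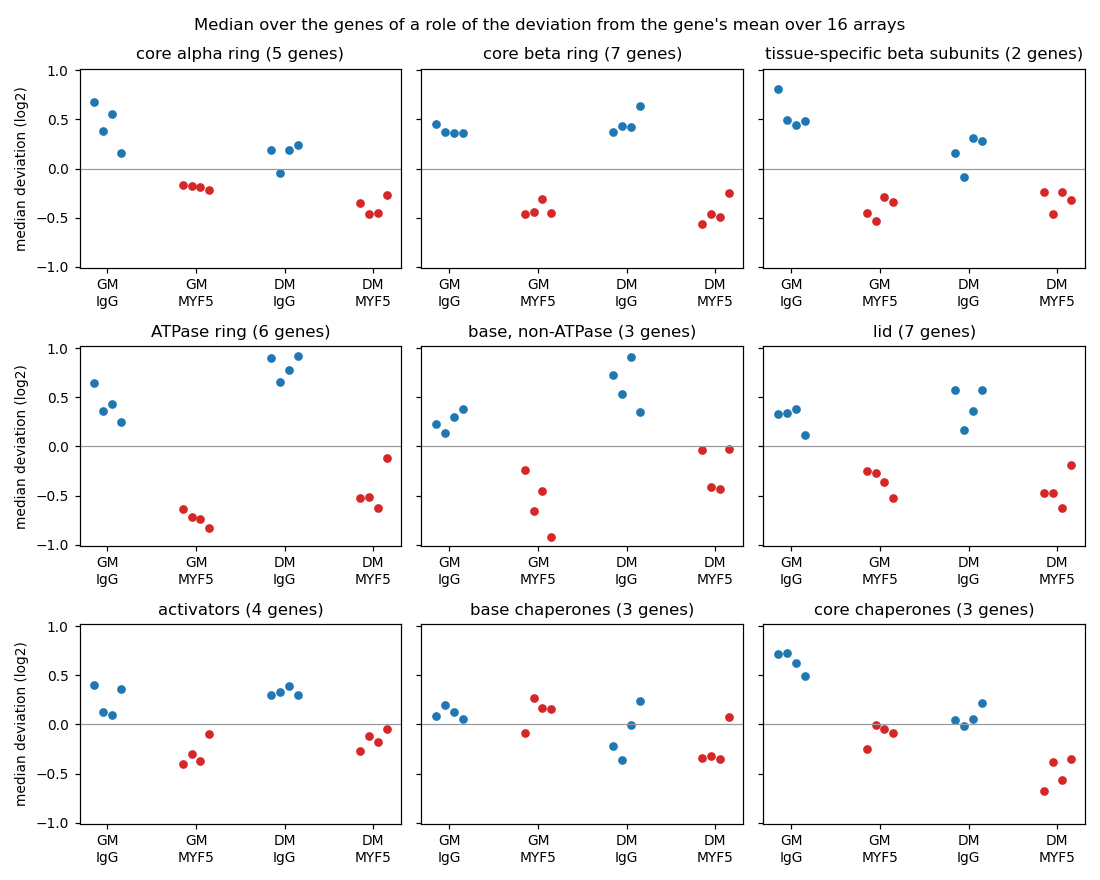
Median log2 deviation of the tested genes of each role from their own means over the 16 arrays (vertical axis), 1 point per array, with the 4 groups along the horizontal axis. In the ATPase ring the IgG arrays lie between 0.25 and 0.92 and the MYF5 arrays between -0.83 and -0.12, while the groups of the base chaperones overlap.

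In the alpha ring, which gates the core, 4 of 5 genes fell in each medium. Psma4 read 11.98, 11.79, 11.85 and 11.54 on the GM IgG arrays and 11.01, 11.07, 10.65 and 10.90 on the GM MYF5 arrays, and in DM 11.86, 11.55, 11.59 and 11.77 against 10.88, 10.66, 10.65 and 11.01. All MYF5 arrays lay below all IgG arrays of their medium, with a log2 change of -0.88 (SE 0.12, limma adjusted p = 3.2e-06) in GM and -0.89 (SE 0.12, limma adjusted p = 2.73e-06) in DM. Psma5 fell by 0.65 and 0.69 on the log2 scale and Psma7 by 0.78 and 0.77. Psma2 was the exception in GM, at 0.04 (limma adjusted p = 0.807), and was called lower in DM at -0.33 (0.0235). Psma3 was called lower in GM at -0.49 and not in DM at -0.29, and its groups overlapped in both media.

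All 7 standard beta subunits fell in both media. Psmb3, a structural subunit, had the largest change of the ring: its GM IgG arrays read 12.10, 12.00, 12.03 and 11.70 and its GM MYF5 arrays 10.68, 10.85, 10.82 and 10.60. The 2 groups were separated by more than their spread, and the log2 change was -1.22 (SE 0.16, limma adjusted p = 1.36e-06). In DM the IgG arrays read 11.92, 11.82, 12.05 and 12.18 and the MYF5 arrays 10.59, 10.63, 10.56 and 11.45, so that replicate 4 of DM MYF5 stood well above its group while still below every IgG array. The change in DM was -1.19 (SE 0.16). The 3 subunits that carry the cutting sites fell as well: Psmb5 (chymotrypsin-like) by 1.02 in GM and 0.77 in DM on the log2 scale, Psmb6 (caspase-like) by 1.10 and 1.03, and Psmb7 (trypsin-like) by 0.77 and 1.02. Psmb1 showed the smallest change, -0.34 in GM (SE 0.12, limma adjusted p = 0.0203), with replicate 4 of GM MYF5 at 11.44 inside the IgG range of 11.43 to 11.56.

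The tissue-specific beta subunits replace the cutting subunits in the immunoproteasome, which interferon induces and blood cells carry at rest. Psmb10, which replaces Psmb7, read 9.66, 9.45, 9.10 and 9.13 in GM IgG and 7.83, 7.95, 7.85 and 7.87 in GM MYF5. In DM it read 9.12, 9.03, 9.22 and 9.21 against 8.20, 7.89, 8.03 and 8.22. It fell 2.75-fold in GM and 2.09-fold in DM without overlap, at log2 changes of -1.46 (SE 0.13, limma adjusted p = 6.43e-09) and -1.06 (SE 0.13, 5.26e-07). Psmb8, which replaces Psmb5, was dim, with 5.65, 5.23, 5.48 and 5.53 in GM IgG and 4.96, 4.67, 5.26 and 5.14 in GM MYF5. Its GM ranges overlapped narrowly and its change of -0.46 passed (limma adjusted p = 0.0123), while in DM it was 0.10 (0.615). Of the blood and immune markers with a probe, Ptprc, Cd3e and Itgam were detected on no array. The remaining 2, Cd14 and Hba-a1, had a summed signal of 676 to 886 in GM IgG, 330 to 465 in GM MYF5, 208 to 240 in DM IgG and 167 to 218 in DM MYF5, and their part in the values of Psmb10 and Psmb8 was not tested.

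Every gene of the ATPase ring fell in both media without overlap between the groups. Psmc1 read 10.89, 10.75, 10.76 and 10.78 in GM IgG and 9.38, 9.25, 9.27 and 9.52 in GM MYF5. The gap between the closest arrays exceeded the spread within either group, and the change was -1.44 (SE 0.10, limma adjusted p = 8.63e-10), or 2.71-fold. In DM it was -1.23 (SE 0.10), from 10.90, 10.93, 10.94 and 11.19 to 9.62, 9.73, 9.69 and 9.99. Psmc4 had the largest change of the ring in DM: its IgG arrays read 12.07, 11.80, 11.86 and 12.05 and its MYF5 arrays 10.29, 10.14, 10.18 and 11.07, a log2 change of -1.52 (SE 0.15, limma adjusted p = 6.25e-08). Replicate 4 of DM MYF5 was again the highest of its group, and still below the IgG arrays. Psmc2 fell by 0.90 in GM and 1.33 in DM, Psmc3 by 1.08 and 1.40, and Psmc5 by 1.10 and 1.25, on the log2 scale. Psmc6 had the smallest changes, -0.81 and -0.59, and its GM IgG arrays were widely spread, from 6.02 to 7.03.

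The rest of the base holds scaffolds and ubiquitin receptors. Psmd4, a receptor for ubiquitin chains, read 12.53, 12.72, 12.56 and 12.84 in GM IgG and 11.16, 11.19, 11.57 and 11.33 in GM MYF5, and 13.06, 13.07, 13.27 and 13.24 against 11.68, 11.75, 11.82 and 12.23 in DM. No arrays overlapped, at log2 changes of -1.35 (SE 0.12, limma adjusted p = 1.13e-08) and -1.29 (SE 0.12, 3.39e-08). Psmd1, a scaffold, fell by 0.86 and 0.92 on the log2 scale. Psmd2, the other scaffold, was not called: its change was 0.20 in GM (limma adjusted p = 0.198) and -0.09 in DM (0.614), its groups overlapped in both media, and its deposited signal was dim, with group means of 83.5 to 93.8. Its other tested probe was detected on only 7 of 16 arrays, none of them GM IgG, and bears on neither value.

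In the lid, 6 of 7 genes fell in each medium. Psmd14, the enzyme that cuts ubiquitin from the substrate, read 10.74, 10.34, 10.52 and 9.76 in GM IgG and 9.40, 9.33, 9.12 and 9.12 in GM MYF5. Replicate 4 of GM IgG was the lowest of its group but above every MYF5 array, and the log2 change was -1.10 (SE 0.16, limma adjusted p = 8.39e-06), followed by -1.19 (SE 0.16) in DM. Psmd12, a scaffold of the lid, read 10.64, 10.63, 10.68 and 10.87 in GM IgG and 9.65, 9.62, 9.75 and 9.67 in GM MYF5. It had the largest change of the lid in DM, from 11.03, 11.05, 11.06 and 11.16 to 9.63, 9.68, 9.50 and 9.99, at -1.37 (SE 0.10, limma adjusted p = 4.67e-09). Psmd13 fell by 1.06 and 1.20, and Psmd7, the partner of Psmd14, by 0.33 and 0.62, on the log2 scale; a second probe of Psmd7 was not called in GM, at -0.12. The GM call of Psmd7 was lost with median scaling (-0.18), without scaling (-0.05) and with the distance between Actb probes as a covariate (-0.20). That distance is a possible sign of RNA quality. Psmd6 changed by -1.10 in GM and -0.98 in DM with wide spread, its GM IgG arrays lying between 6.96 and 8.48. Psmd8 was called lower in GM at -0.26 (limma adjusted p = 0.0257) and not in DM at -0.06 (0.606). Psmd11 was called lower in DM at -0.48 and not in GM at -0.07 (limma adjusted p = 0.632), although its second tested probe was called in GM at -0.74 (SE 0.17, 0.00125).

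The activators did not move as a group. Psme1 and Psme2 form 1 mixed ring, induced by interferon, yet Psme1 had the largest change of all 40 genes and Psme2 was called in neither medium. Psme1 read 9.86, 9.47, 9.48 and 9.57 in GM IgG and 7.68, 7.83, 7.59 and 8.20 in GM MYF5. In DM it read 9.55, 9.39, 9.69 and 9.73 against 8.06, 7.79, 7.75 and 8.50. The MYF5 arrays lay clear below every IgG array, and the fall was 3.41-fold in GM (log2 -1.77, SE 0.16, limma adjusted p = 1.37e-08) and 2.96-fold in DM (-1.57, SE 0.16, 9.45e-08). Its second probe gave -1.62 and -1.47. Psme2 read 8.29, 8.44, 8.06 and 8.87 in GM IgG and 7.85, 8.36, 8.26 and 8.82 in GM MYF5, overlapping ranges, with a log2 change of -0.09 (limma adjusted p = 0.705), and its change in DM was -0.04 (0.881). Psme3, which forms the nuclear activator ring, was at 0.11 in GM (limma adjusted p = 0.598) and 0.30 in DM (0.106). Psme4, the large nuclear activator linked to histone degradation, was at -0.17 in GM (limma adjusted p = 0.214) and was called lower in DM at -0.37 (0.00827). That DM call was lost with median scaling (-0.45), without scaling (-0.43) and with the distance between Actb probes as a covariate (-0.32). The second probe of Psme4 was near background, detected on 3 DM IgG arrays, 1 DM MYF5 array and no GM array, and bears on neither value.

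**Figure D3:**
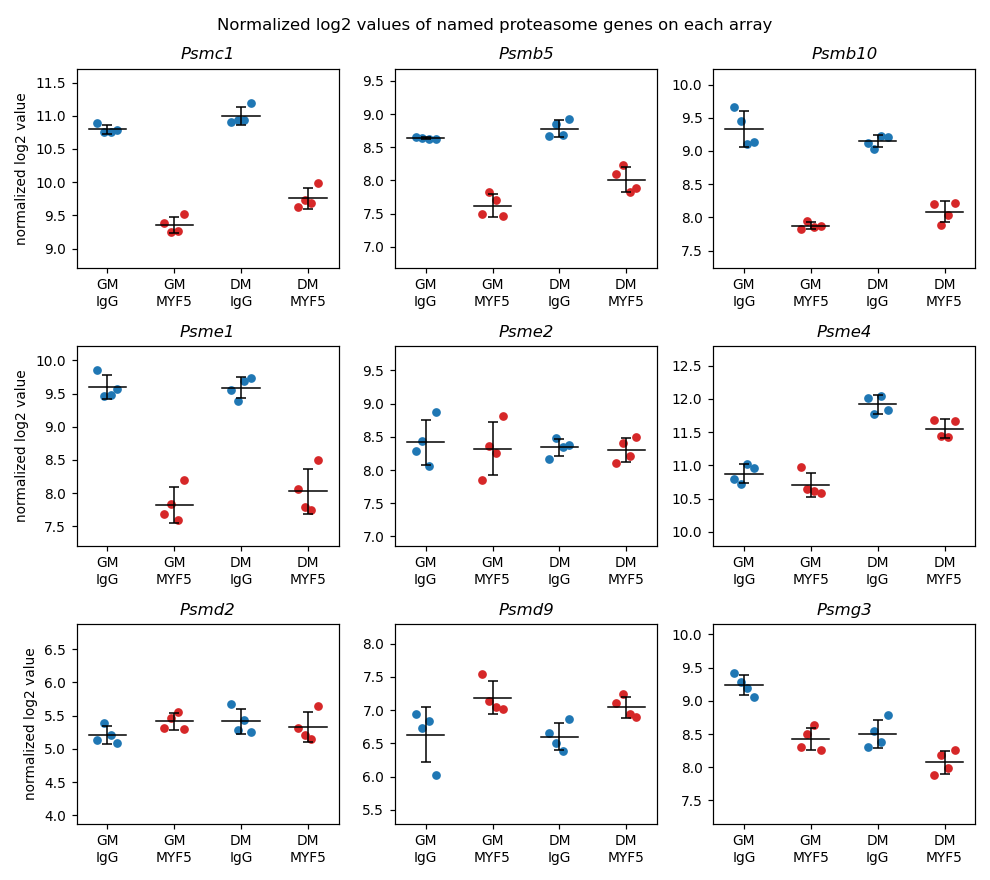
Normalized log2 signal (vertical axis) on every array for 9 named members, 1 panel per gene, with the 4 groups along the horizontal axis, points for single arrays, long bars for the group mean and whiskers for its SD. Psme1, Psmc1 and Psmb10 show MYF5 arrays wholly below the IgG arrays of the same medium, while the groups of Psme2 overlap.

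Among the chaperones of the base, the 3 tested genes went different ways. Psmd10, also known as gankyrin, read 9.88, 9.98, 9.91 and 9.84 in GM IgG and 8.89, 9.21, 8.97 and 9.15 in GM MYF5, and changed by -0.85 (SE 0.12, limma adjusted p = 4.69e-06) in GM and by -1.08 (SE 0.12, 2.33e-07) in DM. Its 3 probes were all called lower in both media. Psmd9 was the 1 gene called higher: it read 6.94, 6.73, 6.83 and 6.03 in GM IgG and 7.55, 7.14, 7.04 and 7.02 in GM MYF5, just clear of each other, at 0.55 (SE 0.18, limma adjusted p = 0.0125), and 0.44 (SE 0.18, 0.0392) in DM. Its second tested probe pointed the other way without passing, at -0.16 (limma adjusted p = 0.327) and -0.24 (0.129), and the GM call was lost without replicate 4 of GM IgG, without replicate 1 of GM MYF5 or with only the GM groups in the fit. The values without those replicates were 0.35 to 0.43. The DM call held under 10 of 19 alternatives, and was lost without replicate 1, 2 or 3 of DM IgG or replicate 1 or 2 of DM MYF5 (0.37 to 0.46). Psmd5 was called in neither medium, at 0.09 (limma adjusted p = 0.739) and -0.31 (0.201). The chaperones of the core all fell. Psmg1 and Psmg2, which act as a pair on the alpha ring, fell by 0.80 and 0.54 in GM and by 0.88 and 0.39 in DM on the log2 scale, and Psmg3 by 0.81 and 0.42.

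Of the 15 genes with several tested probes, the near-background second probes of Psmd2 and Psme4 included, the probes gave the same call for 12 in GM and 13 in DM, and no gene had probes called in opposite directions. In GM and DM the calls overlapped in 29 genes, of the 32 called lower in each. Over all genes, neither this overlap nor the calls that held under the alternatives below were counted. Psma3, Psmb8 and Psmd8 were called in GM alone and Psma2, Psmd11 and Psme4 in DM alone, without a called difference between the media. The calls of 17 genes in GM and 25 in DM held under all 19 alternatives run per gene, and 17 held in both: Psma5, Psma7, Psmb2, Psmb3, Psmb5, Psmb6, Psmb10, Psmc1, Psmc2, Psmc3, Psmc4, Psmc5, Psmd4, Psmd12, Psmd13, Psmd14 and Psme1. With median scaling, 6 GM calls were lost, those of Psma3 (-0.47), Psmb1 (-0.14), Psmb8 (-0.30), Psmd7, Psmd8 (-0.12) and Psmg2 (-0.26). The weaker calls also depended on single arrays. In GM, Psma3 was lost without replicate 1 of GM IgG or replicate 4 of GM MYF5 (-0.38 to -0.37), Psmb1 without replicate 1 of either group (-0.31 to -0.25), and Psmb8 without replicate 2 of GM MYF5 (-0.35). Psmd8 was lost without replicate 2 or 4 of GM IgG or replicate 4 of GM MYF5 (-0.25 to -0.21). In DM, Psma2 was lost without any 1 of 6 arrays, all but replicate 2 of DM IgG and replicate 4 of DM MYF5 (-0.32 to -0.29). Most members are bright probes: 23 of 40 lay in the fifth and brightest of 5 bins of about 1886 tested genes, where 30.5% of genes were called lower in GM and 33.2% in DM, and of those 23 members 20 were called lower in each medium.

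The distance between Actb probes, a possible sign of RNA quality, moved with the antibody and with the medium. Probe positions in the transcript were not available, so what this distance measures was not tested. The gap between the brightest and the dimmest probe of Actb, the beta-actin gene, was 6.42 ± 1.53 log2 units in GM IgG, 3.94 ± 0.52 in GM MYF5, 4.73 ± 0.81 in DM IgG and 2.61 ± 0.76 in DM MYF5 (SD, n = 4 each). With this gap as a covariate, 25 genes were lower and 2 higher in GM, against 20.1% and 22.9% of all genes. In DM 27 were lower and 1 higher, against 24.4% and 25%. The member medians were -0.53 and -0.65. The calls of Psmc6 and Psmd6 were lost in both media, and Psma3 in GM was then at 0.080. Within groups, the proteasome medians were also read in the order of the gap. From the widest gap to the narrowest, the median deviation of the 40 genes was 0.46, 0.39, 0.36 and 0.30 in GM IgG (gaps of 7.62, 7.27, 6.56 and 4.21), 0.48, 0.43, 0.35 and 0.24 in DM IgG (5.62, 5.17, 4.27 and 3.85), and -0.20, -0.44, -0.46 and -0.47 in DM MYF5 (3.42, 3.05, 2.22 and 1.75). In GM MYF5 it was -0.29, -0.32, -0.43 and -0.33 (4.54, 4.15, 3.70 and 3.36), so the order was the same in 3 of the 4 groups. Arrays with similar gaps stayed apart by antibody. In GM, 0.30 in IgG (4.21) stood beside -0.29 and -0.32 in MYF5 (4.54 and 4.15). In DM, 0.24 in IgG (3.85) stood beside -0.20 in MYF5 (3.42). The same order was not examined over all genes. How much of the antibody difference moves with RNA quality was not tested, and the covariate stands only for the gap. Of the 8 tested muscle markers, 4 were lower and 1 higher in MYF5 in GM, against 22.4% and 26.3% of all genes. In DM 2 were lower and 1 higher, against 26.6% and 27.7%. Of markers of fat, endothelium, neurons and epithelium, Adipoq, Plin1, Cidec, Cdh5, Pecam1, Krt18, Snap25 and Syt1 were detected on no array, while Lep, Kdr, Tek and Cdh1 were tested. Lep and Cdh1 were called in no comparison. Of the endothelial genes Kdr and Tek, 1 was called higher in MYF5 in GM, against 26.3% of all genes. In each precipitate 1 was called higher in DM than in GM, against 29.5% of all genes in IgG and 28.9% in MYF5. No call was lower. The summed signal of Kdr and Tek was 139.4 to 151 in GM IgG and 150.5 to 166.3 in GM MYF5. The part of these markers in the proteasome values was not tested.

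The changes of MYF5 over IgG were compared between the media by the DM minus GM difference. No proteasome gene was called (0 of 40 by limma; 7 had an unadjusted p under 0.05), where 5.78% of all genes were called (3.3% lower, 2.48% higher) and 21.6% had an unadjusted p under 0.05. Differences ran from -0.43 for Psmc2 (95% interval -0.807 to -0.0528, limma adjusted p = 0.17) to 0.56 for Psmb8 (0.129 to 0.993, 0.117). By role the outermost values were 0.20 for Psma3 and -0.37 for Psma2 in the alpha ring, 0.25 for Psmb5 and -0.25 for Psmb7 among the beta subunits, 0.22 for Psmc6 in the ATPase ring, 0.06 for Psmd4 and -0.29 for Psmd2 in the base, and 0.19 for Psmd8 and -0.41 for Psmd11 in the lid. Among activators and chaperones they were 0.20 for Psme1, -0.19 for Psme4, -0.11 for Psmd9, -0.40 for Psmd5, 0.39 for Psmg3 and -0.08 for Psmg1. Without replicate 4 of DM MYF5, whose median deviation of -0.20 was the highest of its group, 3 genes were called with a larger fall in DM: Psmc2 at -0.58 (limma adjusted p = 0.0223), Psmc4 at -0.50 (0.0359) and Psmd12 at -0.44 (0.0482).

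Between the media, single genes moved in both directions and the median gene moved little. These comparisons share their IgG or MYF5 arrays with those above. In the IgG precipitates, 9 of 40 genes were higher in DM than in GM and 8 lower, against 29.5% and 34% of all genes (63.5% in all), with a median of 0.03 beside -0.06 for all genes. In the MYF5 precipitates 7 were higher and 8 lower, against 28.9% and 32.7% (61.5% in all), with a median of -0.04 beside -0.06. The arrays did not overlap for 10 genes above and 7 below in IgG, against 25.8% and 29.2% of all genes, and for 6 above and 7 below in MYF5, against 26% and 29.3%. The split depended on the scaling. In IgG it was 9 higher and 5 lower with median scaling, against 32.5% and 21.6% of all genes. Without scaling it was 9 and 2, against 35% and 15.9%, and with the deposited z-scores 9 and 13, against 33% and 29.6%. In MYF5 it was 1 and 11 with median scaling, against 21.4% and 32.9%. There it was 1 and 7 without scaling, against 19.5% and 30.5%, and 10 and 6 with cyclic loess, against 32.2% and 29.3%. The Actb gap was narrower in DM than in GM in both precipitates. With it as a covariate 13 genes were higher and 7 lower in IgG, against 28.5% and 33% of all genes. In MYF5, 10 were higher and 6 lower, against 28.4% and 32.3%. Psma3 in IgG then went from -0.44 to -0.05 and lost its call (limma adjusted p = 0.709), and Psmd6 in IgG was called higher at 0.48. Muscle markers rose beside these changes: 7 of 8 tested were higher in DM in IgG and 8 of 8 in MYF5, and their summed signal went from 9029 to 11350 in GM IgG to 92640 to 102634 in DM IgG, and from 6795 to 11004 in GM MYF5 to 60682 to 78964 in DM MYF5. Their part in the proteasome values was not tested.

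Of the genes called higher in DM, 5 were called in both precipitates, of 9 in IgG and 7 in MYF5: Psmc3, Psmc5, Psmd4, Psmd10 and Psme4. Of the 8 called lower in each, 6 were shared: Psma7, Psmb2, Psme3, Psmg1, Psmg2 and Psmg3. A further 19 genes were called in neither. How many calls the precipitates share over all genes was not counted. Of the 15 genes with several tested probes, the probes gave the same call for 10 in IgG and 11 in MYF5. No gene had probes called in opposite directions. Of the 16 genes of the regulatory particle (ATPase ring, base and lid), 6 were called higher in IgG, against 29.5% of all genes, and 4 in MYF5, against 28.9%, which is near that share. None was called lower in the 16-array fit, against 34% and 32.7%, but this depended on the setting. In IgG, Psmd14 was called lower without replicate 4 of GM IgG (-0.45). In MYF5, Psmd7 was at -0.23 (limma adjusted p = 0.0533), and its second probe was called lower at -0.36 (0.0251). Psmd7 was called lower in MYF5 with median scaling (-0.44), with the replicate block, and without replicate 4 of either MYF5 group (-0.29 and -0.28). Psmc4 was called lower in MYF5 without replicate 4 of DM MYF5 (-0.27), and Psmd14 with only the MYF5 groups in the fit (-0.34). No core chaperone was called higher, and all 3 were called lower in both, Psmg2 by 1 of its 2 probes. The regulatory particle and the chaperones were not tested against other genes.

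The nuclear activators had the largest changes, in opposite directions. Psme4 read 10.79, 10.72, 11.02 and 10.96 in GM IgG and 12.02, 11.77, 12.05 and 11.83 in DM IgG, and 10.97, 10.64, 10.61 and 10.59 in GM MYF5 and 11.68, 11.44, 11.42 and 11.67 in DM MYF5. The DM arrays all lay above the GM arrays of the same antibody, a rise of 2.07-fold in IgG (log2 1.05, SE 0.11, limma adjusted p = 4.19e-08) and 1.81-fold in MYF5 (0.85, SE 0.11, 8.93e-07). Its second probe was detected on none of the GM arrays and gives no usable fold. Psme3 read 10.77, 10.09, 10.36 and 10.13 in GM IgG and 9.31, 9.72, 9.22 and 8.98 in DM IgG, and 10.64, 10.36, 10.50 and 10.28 in GM MYF5 and 9.62, 9.63, 9.70 and 9.47 in DM MYF5. It fell without overlap, by 1.04 in IgG (SE 0.15, limma adjusted p = 4.42e-06) and by 0.84 in MYF5 (SE 0.15, 5.88e-05) on the log2 scale. Psme1 and Psme2, the interferon-induced ring, were called in neither precipitate, at -0.0026 and 0.20 for Psme1 and -0.07 and -0.015 for Psme2.

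**Figure D4:**
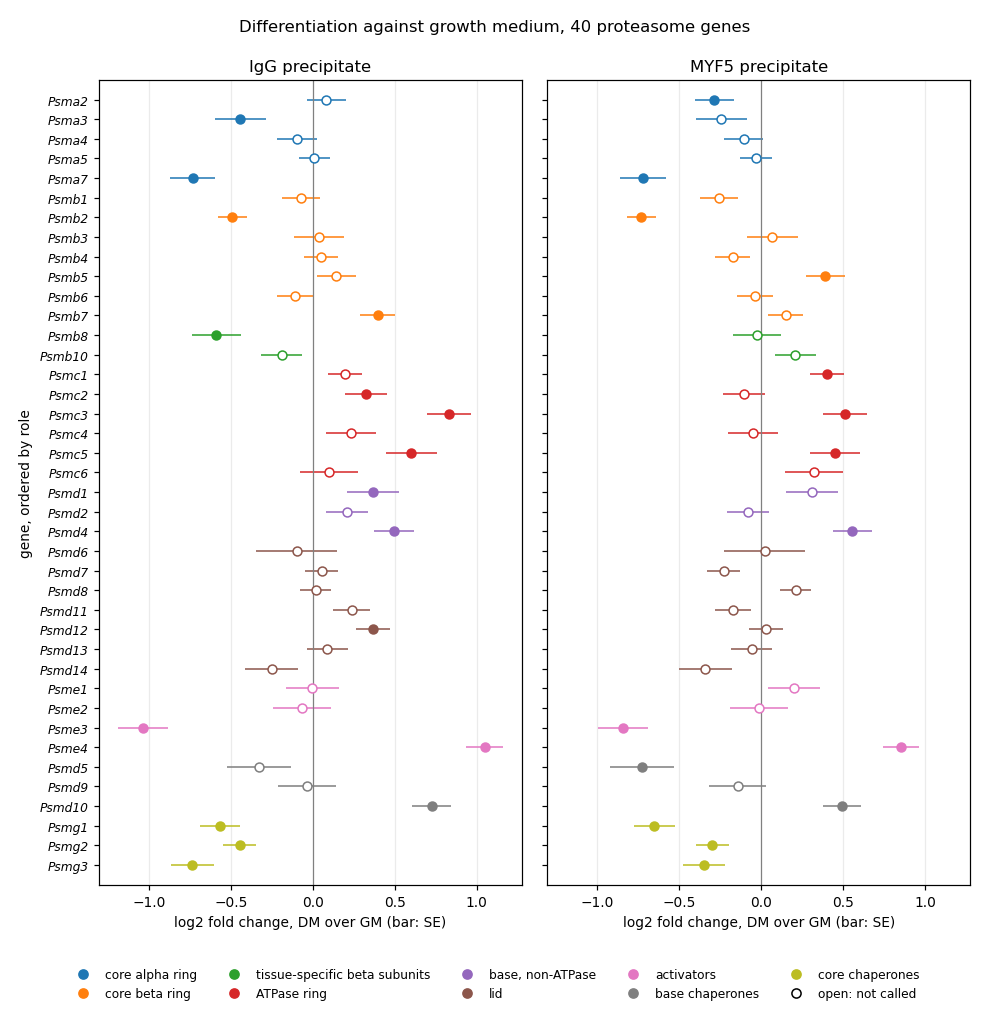
Log2 fold change of DM over GM (horizontal axis, bars are SE) for the 40 tested proteasome genes, ordered by role, in the IgG and in the MYF5 precipitates; filled points were called and open points were not. Psme4 lies farthest right and Psme3 farthest left in both, and the 3 core chaperones are filled points left of zero.

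Within the core, Psma7, an alpha subunit, fell in DM in both precipitates. It read 12.15, 12.15, 12.06 and 12.12 in GM IgG and 11.18, 11.32, 11.30 and 11.74 in DM IgG, and 11.19, 11.19, 11.50 and 11.46 in GM MYF5 and 10.30, 10.51, 10.60 and 11.05 in DM MYF5. The changes were -0.73 (SE 0.14, limma adjusted p = 9.75e-05) and -0.72 (SE 0.14, 0.000125), without overlap. Psmb2 fell by 0.49 and 0.73, and the other alpha genes ranged from -0.44 for Psma3 to 0.08 for Psma2 in IgG and up to -0.03 for Psma5 in MYF5. Psmb7 was called higher in IgG at 0.40, with 0.15 in MYF5, and Psmb5 in MYF5 at 0.39, with 0.14 in IgG. The Psmb5 call was lost with median scaling (0.26) and without scaling (0.25). The other probes of Psmb7 were not called in IgG, at 0.24 and 0.013. Psmb8 was called lower in IgG at -0.59 (limma adjusted p = 0.00151), with -0.03 in MYF5; without scaling the IgG call was lost at -0.29 (0.103). Psmb10 was called in neither, although its second probe was called higher in MYF5 at 0.36.

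In the ATPase ring, Psmc3 read 10.90, 10.42, 10.63 and 10.58 in GM IgG and 11.42, 11.36, 11.45 and 11.62 in DM IgG. It rose by 0.83 on the log2 scale (SE 0.13, limma adjusted p = 1.47e-05) with no overlap, and by 0.51 (SE 0.13, 0.00235) in MYF5. Psmc5 rose by 0.60 and 0.45, with overlapping arrays in MYF5, while Psmc6 was at 0.10 and 0.32 and Psmc2 at 0.32 and -0.11, called in IgG. Psmd4 rose by 0.50 and 0.56, and the chaperone Psmd10 by 0.73 and 0.49, its 3 probes all called higher in both precipitates. In the lid Psmd12 was called in IgG at 0.37, with 0.03 in MYF5, while its second probe was not called in IgG at 0.16. Psmd14 was the lowest at -0.25 and -0.34, called in neither in the 16-array fit. Psmc1 was called higher in MYF5 at 0.40 and was not called in IgG at 0.20. Under median scaling or none, the MYF5 calls of Psmb5, Psmc1, Psmc3, Psmc5, Psmd4 and Psmd10 were lost. Psmc5 was also lost in MYF5 without replicate 4 of DM MYF5 (0.35). In IgG, Psmc2 was lost without any 1 of 6 arrays (0.28 to 0.33; replicate 2 of DM IgG and replicate 3 of GM IgG were the exceptions), Psmd1 (0.37) without replicate 1, 2 or 3 of either group, and Psma3 without replicate 2 of DM IgG or replicate 1 or 3 of GM IgG (-0.39 to -0.32). In MYF5, Psma2 (-0.28) was lost without any 1 of 5 arrays, and Psmg3 without replicate 1 or 3 of DM MYF5 or replicate 2 or 3 of GM MYF5 (-0.32 to -0.28). The calls that held under every alternative in both precipitates were those of Psme4, higher, and of Psma7 and Psme3, lower.

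The chaperones that start the core fell in DM. Psmg3 read 9.42, 9.29, 9.19 and 9.06 in GM IgG and 8.31, 8.54, 8.38 and 8.78 in DM IgG, clear of each other, at -0.73 (SE 0.13, limma adjusted p = 4.52e-05), and changed by -0.35 (SE 0.13, 0.0252) in MYF5. Psmg1 fell by 0.57 and 0.65 and Psmg2 by 0.45 and 0.30 on the log2 scale. The second probe of Psmg2 was called in neither, at -0.28 (limma adjusted p = 0.0741) and -0.11 (0.475), with overlapping arrays. Without scaling the IgG calls of all 3 were lost. Of the base chaperones, Psmd5 was called lower in MYF5 at -0.73 (limma adjusted p = 0.00279), with -0.33 in IgG, and Psmd9 was called in neither, at -0.04 and -0.14. The second probe of Psmd9 was called lower in both, at -0.36 in IgG (limma adjusted p = 0.0214) and -0.44 in MYF5 (0.00626).

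The 2 genes named as partners of family members, Psmc3ip and Psme3ip1, were not counted with the family. Psmc3ip, a factor of meiotic recombination, was not called for MYF5 over IgG, at 0.06 and 0.21, and was lower in DM by log2 changes of -2.76 in IgG and -2.61 in MYF5. Psme3ip1, named for its interaction with the Psme3 product, was at 0.25 and 0.02 for MYF5 over IgG and rose in DM by 0.80 and 0.57 on the log2 scale.

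Other genes of the ubiquitin and proteasome pathway were read from lists of named genes. For MYF5 over IgG, 22.4% of all genes were called lower and 26.3% higher in GM, and 26.6% and 27.7% in DM. Of the proteasome's further subunits, assembly and bound factors, 7 were tested: 4 were lower and 1 higher in GM, and 4 lower and 2 higher in DM. Pomp, which matures the beta ring, changed by -1.16 (SE 0.09, limma adjusted p = 1.4e-09) and -1.10, and Zfand2a, an arsenite-inducible protein that binds the regulatory particle, by 0.93 and 0.90. Among shuttle factors and partners of the segregase Vcp, 4 of 7 were lower and 3 higher in each medium, led by Nsfl1c at -1.21 and -1.20 and Ubqln1 at 0.75 and 0.54. Of 6 tested regulators of proteasome transcription, Mafg was higher in both media at 0.74 and 0.88 and Nfe2l2 lower at -0.43 and -0.37. Nfe2l1, the factor that restores proteasome genes when the protease fails, was not called for MYF5 over IgG, and was higher in DM by 1.42 in IgG and 1.18 in MYF5. The ubiquitin-activating enzyme Uba6 was called lower in GM at -0.34 and not called in DM at 0.13. Of 5 tested genes of ubiquitin-like conjugation and other degradation routes, Nedd8 was lower at -1.06 and -0.79. The DM minus GM difference was called for Sqstm1, an autophagy receptor, at -0.88, and Bag6 at -0.61, against 5.78% of all genes. Of the 4 muscle ubiquitin ligases none was called in GM, and Mul1 at 0.69 and Fbxo30 at 0.64 were higher in DM. In DM against GM, Trim63 rose by 2.70 and 2.71 and Fbxo32 by 1.35 and 1.68, both ligases of muscle wasting, while Uchl5, a deubiquitinase of the base, fell by 0.97 and 1.00 on the log2 scale.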

How the data were processed

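RNA from 16 precipitates of C2C12 extracts (4 groups of 4) was measured on Illumina mouse bead arrays; groups came from the sample titles. Per the labels' protocols, amplification started from an oligo-dT primer and incorporated biotin. The authors deposited, for 25697 probes per array, an intensity with its detection p-value, not normalized between arrays, and made with GenomeStudio 2011.1 per the submitters' processing notes. The deposited series values are a score: they equal the z-score of each array's log10 signal to within 5.0e-10. No chip or slide was given in the sources used here.

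Signals were background-corrected (normexp with the control distribution inferred from detection p, offset 16), quantile-normalized and log2-transformed (limma 3.58.1, R 4.3.3), so that changes are relative to all other RNAs measured. Probes were tested when 4 or more of 16 arrays detected them at p under 0.05 (13884 probes, 9429 genes) in 1 model of 4 group means with 12 residual degrees of freedom (lmFit, eBayes with trend). Adjusted p-values are Benjamini-Hochberg over all tested probes, called under 0.05; the script was tested on simulated data. Symbols came from the platform annotation, where 1719 probes had none and 0 had several. Promoters are RefSeq's on GRCm38.p6.

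Named genes are the outermost members of each role in each comparison, those not called or called against the majority, and the largest 5 each way for DM over GM; from other lists, the leading called genes. The members and lists were chosen with earlier results of these data known. Alternatives covered scaling, background, offset, filter, probe choice, z-scores, the Actb gap, the replicate block and leaving out each replicate.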

Additional observations from a re-analysis of the deposited data

Results flagged for a closer look

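Within a group of 4 arrays, 13 of 160 gene and group combinations had 1 array farther from the others than Dixon's test allows at its usual level, where chance gives about 1 in 20. Of these, 5 were replicate 4 of DM MYF5 reading high: Psmb3 at 11.45 beside 10.56 to 10.63 for the other arrays, Psmc3 at 10.55 beside 9.87 to 9.94, Psmc4 at 11.07 beside 10.14 to 10.29, Psmd10 at 9.86 beside 9.43 to 9.46, and Psmd13 at 11.20 beside 10.62 to 10.70. The 5 genes come from the beta ring, the ATPase ring, the base chaperones and the lid, and all 5 remained below the DM IgG arrays. Replicate 4 of DM IgG read high for Psmb4 at 13.44, Psmc1 at 11.19 and Psmd13 at 12.08, and low for Psmg2 at 9.60. Replicate 2 of DM IgG read low for Psma2 at 12.96. In GM MYF5, replicate 1 read low for Psmd5 at 6.82 and high for Psme4 at 10.97, and replicate 2 read low for Psmb7 at 10.36.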

How the results depend on the processing

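Counts of called genes stayed within 1.5 times those reported except as follows. Without scaling, 19 genes (17 lower, 2 higher) were called for MYF5 over IgG in GM, 11 for DM over GM in IgG and 8 in MYF5. Of all genes, 8.23% were then called lower and 39.7% higher for MYF5 over IgG in GM. Median scaling and no scaling put the median of all genes in GM at 0.19 and 0.32, with the member median at -0.78 relative to it, and in the difference at -0.27 and -0.38; for DM over GM they put it at 0.09 and 0.19 in IgG and at -0.14 and -0.15 in MYF5. Leaving out 1 replicate gave 31 to 33 calls in GM, 31 to 34 in DM, 0 to 3 for the difference, 14 to 17 for DM over GM in IgG and 13 to 18 in MYF5. With the replicate block, 1 gene was called in the difference (Psmb8, limma adjusted p = 0.0392). Same-numbered samples correlated at 0.011 to 0.61 between MYF5 and IgG of 1 medium, and at -0.14 to 0.29 between the media. Some matched their own number best, as did replicate 4 in GM (0.61, against -0.18 for the best other number). Others did not, as for replicate 3 in DM (0.020 against 0.24), and the numbers were not taken as pairs. No other count moved by over 1.5 times under the block.

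Of 4075 gene-level values under alternatives, 3895 were counted as unchanged, 128 lost a call, 44 gained one and 8 reversed. Among the 3895, 196 changed sign while called in neither fit. The rest of the 3895 kept both direction and side of the threshold. The reversed values were Psmd8 in GM without scaling (0.011), Psma2 in GM with z-scores (-0.23), DM over GM in IgG with z-scores for Psma2 (-0.21), Psmb4 (-0.24), Psma5 (-0.26) and Psmc2 (-0.013), and, with the Actb gap as a covariate, Psma3 in GM (0.080) and Psmd6 for DM over GM in IgG (0.48). The cause was not tested. Z-scores are not on the log2 scale. Psmb8 and Psmd2 are near background, which limits their precision.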
